A study of Arabidopsis thaliana with 8 samples.

Results

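The microRNAs described here are ath-miR169a, ath-miR169d and ath-miR169h of *Arabidopsis thaliana*, which are 3 of the 161 miRNAs in the deposited array table. They were taken by name, as the rows of the miR169 family with values above the lowest value of the table. The family has 5 rows in all, and the other 2, ath-miR169b and ath-miR169g*, were listed at 0.01, the lowest value, on all 8 arrays. Values at 0.01 have no order, so nothing about a response of these 2 rows can be read from them.

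miR169 is a deeply conserved plant miRNA family. Its targets are mRNAs of NF-YA proteins, the DNA-binding subunits of the nuclear factor Y complex, which recognises CCAAT boxes in promoters, and pairing with miR169 leads to cleavage of the target mRNA. In *Arabidopsis* the family is known for falling under nitrogen starvation and drought, conditions in which NF-YA mRNAs accumulate. RefSeq (TAIR10.1) lists 14 MIR169 genes and 10 NF-YA genes. MIR169a is AT3G13405, MIR169d is AT1G53683, with MIR169e (AT1G53687) as its neighbour, and MIR169h is AT1G19371. MIR169i and MIR169j stand side by side, as do MIR169k, MIR169l, MIR169m and MIR169n. The mature sequence of miR169d is shared with MIR169e, MIR169f and MIR169g, and that of miR169h with MIR169i to MIR169n, so that a value of these rows cannot be assigned to a single gene. Probe sequences and NF-YA mRNAs were not analysed here.

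Whole Col-0 seedlings, grown for 7 days in liquid medium under continuous light, were given medium with 10 nM 24-epibrassinolide (EBR, a brassinosteroid, that is, a growth-promoting steroid hormone of plants) or with the solvent DMSO (mock). Exposure lasted 30 or 180 min, which gave the 4 groups mock at 30 min, EBR30, mock at 180 min and EBR180, with 2 arrays each. The series' design text describes 2 independent experiments at each time. The p-values measure only the spread between these arrays, which the main model pooled over miRNAs. No untreated seedlings from before the exposure were among the 8 arrays, and in RNA of whole seedlings a change within cells and a change in the share of a tissue cannot be told apart.

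Each value is a linear ratio, with the median of the same miRNA across all 8 arrays as the reference. A ratio of 1 is therefore that median, and the ratios do not show which member was more abundant. Of the 161 miRNAs, 43 lay above 0.01 on all arrays and were tested. In mock at 30 min the median over these 43 was 0.818 on one array and 0.931 on the other, against 0.970 to 1.12 on the remaining 6. Over both treatments together, the median was 0.22 higher on the log2 scale at 180 than at 30 min. The p was 0.0286 in a two-sided exact permutation test of 4 arrays against 4, which can give no smaller p. This test takes no account of treatment. An array-wide shift moves the ratios of a group together. Every comparison was therefore repeated on centred values, that is, after subtraction of the array's own median log2 ratio.

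The lowest values of all 3 members were those of mock-treated seedlings at 30 min. For miR169d the mock arrays at 30 min read 0.506 and 0.652, the EBR30 arrays 0.950 and 0.973, the mock arrays at 180 min 1.14 and 1.11, and the EBR180 arrays 1.11 and 1.03. The first pair stood apart from the other 6 arrays, and among the 43 tested miRNAs miR169d had the lowest ratio on each of these 2 arrays. For miR169h the ratios were 0.706 and 0.759 in mock at 30 min, 0.992 and 1.01 in EBR30, 1.20 and 1.13 in mock at 180 min, and 1.03 and 0.966 in EBR180. Mock was thus the lowest group at 30 min and the highest at 180 min, with the values of both EBR groups between them. For miR169a they were 0.636 and 0.829 in mock at 30 min, 0.877 and 0.958 in EBR30, 1.04 and 1.06 in mock at 180 min, and 1.11 and 1.06 in EBR180. Here each group lay above the one named before it, without overlap between groups, although both pairs at 180 min were close together. The share of the 43 miRNAs with such an order was not counted. Nor was the share with the order of miR169h, or with a lowest pair apart from the other 6 arrays as for miR169d. Both mock arrays at 30 min lay below both EBR30 arrays for 65.1% of the 43. They lay below both mock arrays at 180 min for 76.7%. The array medians too were lowest in mock at 30 min and highest at 180 min. After array centring EBR30 and mock at 180 min overlapped, at -0.0435 for EBR30 replicate 2 and -0.0441 for mock replicate 1 at 180 min.

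**Figure D1:**
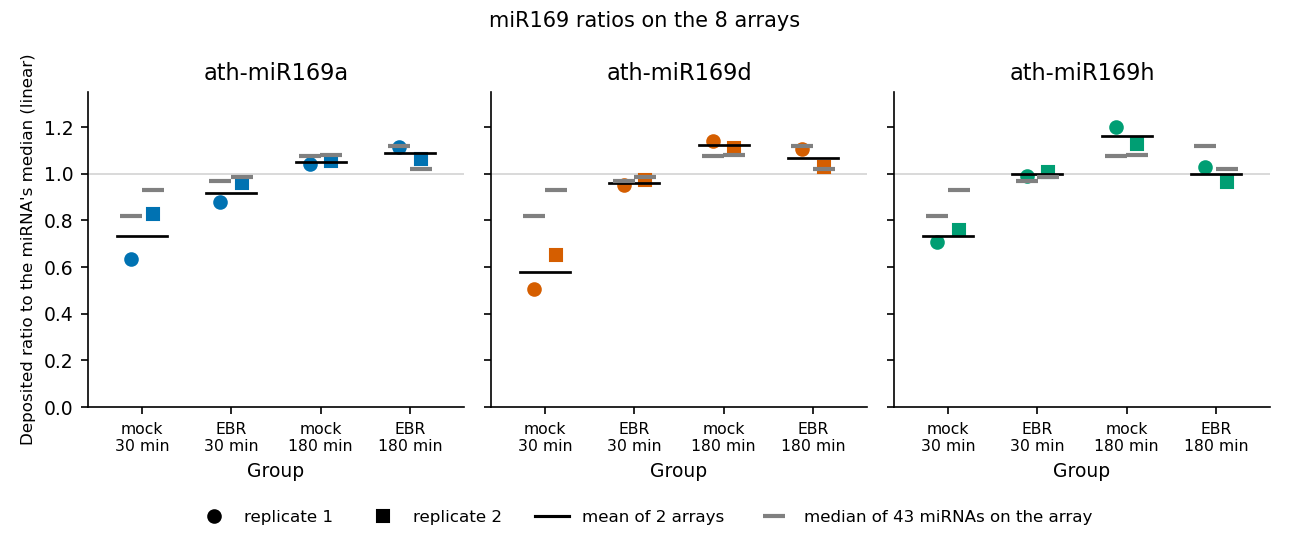
Deposited ratio to the miRNA's own median (linear y axis from 0) for ath-miR169a, ath-miR169d and ath-miR169h in the 4 groups. Coloured points are single arrays, black lines means of 2 arrays, and grey dashes the median of the 43 tested miRNAs on the same array. The mock arrays at 30 min are the lowest for each member, down to 0.506 for miR169d.

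From the lowest to the highest array, miR169d spanned 2.25-fold, miR169a 1.75-fold and miR169h 1.70-fold. The span of miR169d was the second widest of the 43 (rank 2), while those of miR169a and miR169h had ranks 9 and 12. The arrays of a group differed most for miR169a in mock at 30 min (0.38 on the log2 scale) and for miR169d in the same group (0.36), and by at most 0.13 in any other group of any member. The residual SD of log2 ratios within groups was 0.14 for miR169a, 0.14 for miR169d and 0.058 for miR169h, where the model used 0.12 for every miRNA.

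Whether members differed over the 4 groups at all was tested on log2 ratios with the moderated F-test of limma, and p-values were adjusted by Benjamini and Hochberg's procedure across all 43. All 3 members passed the threshold of 0.05, as did 62.8% of the tested miRNAs. The adjusted p was 4.40e-15 for miR169d, 5.63e-06 for miR169h and 2.28e-05 for miR169a. After array centring miR169d (0.00126) and miR169h (0.00645) still passed in limma and miR169a did not (adjusted p = 0.0587).

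The comparison of EBR30 with mock asks whether the miRNAs responded to the hormone within 30 min. All 3 members were higher in EBR30. With mock the mean ratio of miR169d was 0.579 ± 0.103 (SD, n = 2 arrays) and with EBR 0.961 ± 0.0164, which is 1.67-fold higher. Its log2 fold change of 0.74 (95% interval 0.50 to 0.99, limma's adjusted p = 2.01e-07) was the second highest of the 43 miRNAs. With the miRNA's own spread in place of the common one, this call of miR169d was lost (adjusted p = 0.0772, the highest over its alternatives). The log2 fold change of miR169h was 0.45 (95% interval 0.20 to 0.70, adjusted p = 0.00346), from 0.733 ± 0.0371 in mock to 1.00 ± 0.0118 in EBR30, and it was next in order. For miR169a the log2 fold change was 0.34 (95% interval 0.09 to 0.58, adjusted p = 0.0272), at rank 10 from the highest.

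The background at this time was high, with 37.2% of the tested miRNAs past the threshold in either direction and a median log2 fold change of 0.18 over all 43. These calls were 13 higher and 3 lower, and 4 higher and 4 lower after array centring, which took the median to 0.02. Leaving out mock replicate 1 at this time took the 16 calls to 6, while 5 and 9 were left when the first or the second EBR30 replicate was dropped. Both EBR30 arrays lay above both mock arrays for all 3 members, an order that 65.1% of the tested miRNAs also showed. After array centring the log2 fold change of miR169d was 0.58 (adjusted p = 0.000916 from limma) and that of miR169h 0.28 (adjusted p = 0.0109), so that both remained past the threshold. That of miR169a was 0.17, at an adjusted p of 0.131 that ran from 0.00245 to 0.528 over its alternatives. The call of miR169a was also lost without mock replicate 1 at 30 min (0.15, adjusted p = 0.528), EBR30 replicate 1 (0.40, adjusted p = 0.0768) or EBR30 replicate 2 (0.27, adjusted p = 0.219).

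**Figure D2:**
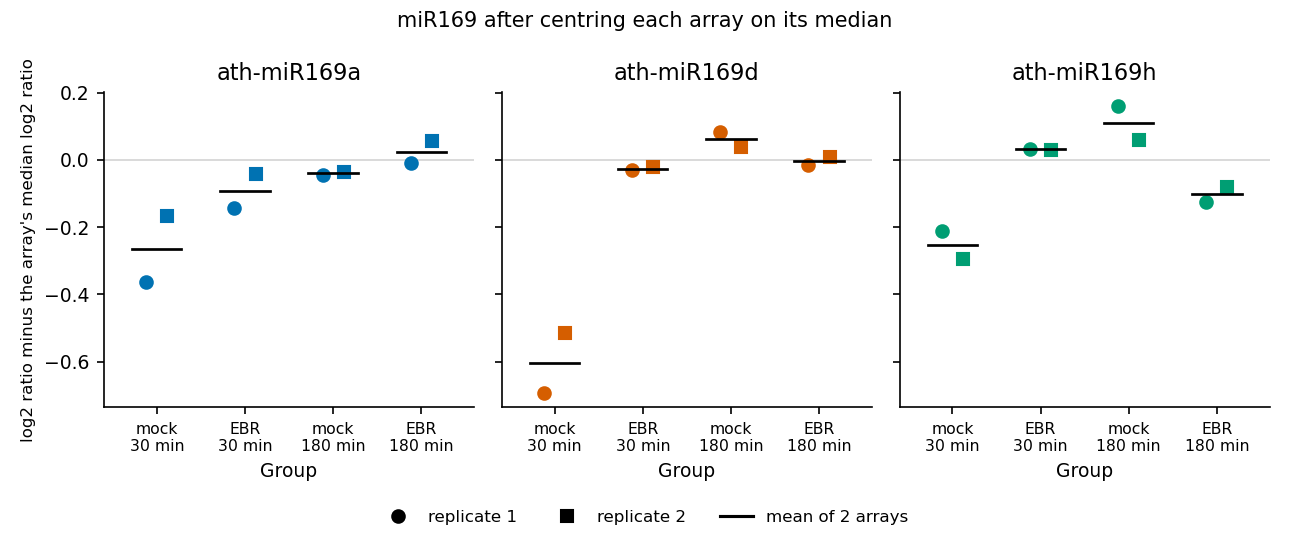
log2 ratio of each member minus the median log2 ratio of the 43 tested miRNAs on the same array (y axis), by group. Points are single arrays and black lines means of 2 arrays. In mock at 30 min miR169d lies at -0.69 and -0.51 and on the other arrays between -0.03 and 0.08.

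Against the other miRNAs of the same array, the low values at 30 min in mock did not disappear. miR169d lay 0.69 and 0.51 below the array median on these arrays on the log2 scale, and at -0.03 and -0.02 on the EBR30 arrays. miR169h lay 0.21 and 0.29 below it in mock at 30 min, and at 0.03 on both EBR30 arrays. miR169a lay 0.36 and 0.17 below it in mock at 30 min and still 0.14 and 0.04 below it in EBR30.

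At 180 min no member passed the threshold between EBR and mock, in a comparison in which 16.3% of the tested miRNAs did (7 of 43, and 2 of 43 without mock replicate 2 or without EBR180 replicate 1). The log2 fold change was 0.05 for miR169a (95% interval -0.19 to 0.30), -0.08 for miR169d (-0.32 to 0.17) and -0.22 for miR169h (-0.47 to 0.02). The adjusted p from limma was 0.735 for miR169a, 0.735 for miR169d and 0.272 for miR169h. None passed without adjustment either. The upper bounds for miR169d and miR169h lay below the increases of these members at 30 min. The mean ratio of miR169h was 0.997 ± 0.0438 in EBR180 and 1.16 ± 0.0506 in mock (SD, n = 2 arrays). After array centring the decrease of miR169h passed the threshold (-0.21 on the log2 scale, limma's adjusted p = 0.0277, with 0.0221 and 1 as the extremes over its alternatives), when 13 of the 43 miRNAs did (7 higher and 6 lower). The 2 mock arrays at 180 min of miR169h were then 0.16 and 0.06 above the array median and the EBR180 arrays 0.12 and 0.08 below it, on the log2 scale.

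The EBR effect at 180 min was lower than that at 30 min for miR169d, by a log2 difference of -0.82 (95% interval -1.17 to -0.47, adjusted p = 5.84e-05 from limma), and for miR169h, by -0.67 (-1.02 to -0.32, adjusted p = 0.00117). With its own spread the call of miR169d was lost here too (adjusted p = 0.0805, the highest over its alternatives). For miR169a the difference was -0.29 (-0.63 to 0.06) and did not pass (adjusted p = 0.205). In this comparison 25.6% of the tested miRNAs passed (4 higher and 7 lower, and 8 and 7 after array centring), and the median over all 43 was -0.24. After array centring the differences were -0.64 for miR169d (adjusted p = 0.00227), -0.50 for miR169h (adjusted p = 0.00244) and -0.11 for miR169a (adjusted p = 0.471). Without mock replicate 2 at 30 min the difference of miR169a was -0.48 and passed (adjusted p = 0.0244, against up to 0.768 under its other alternatives).

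**Figure D3:**
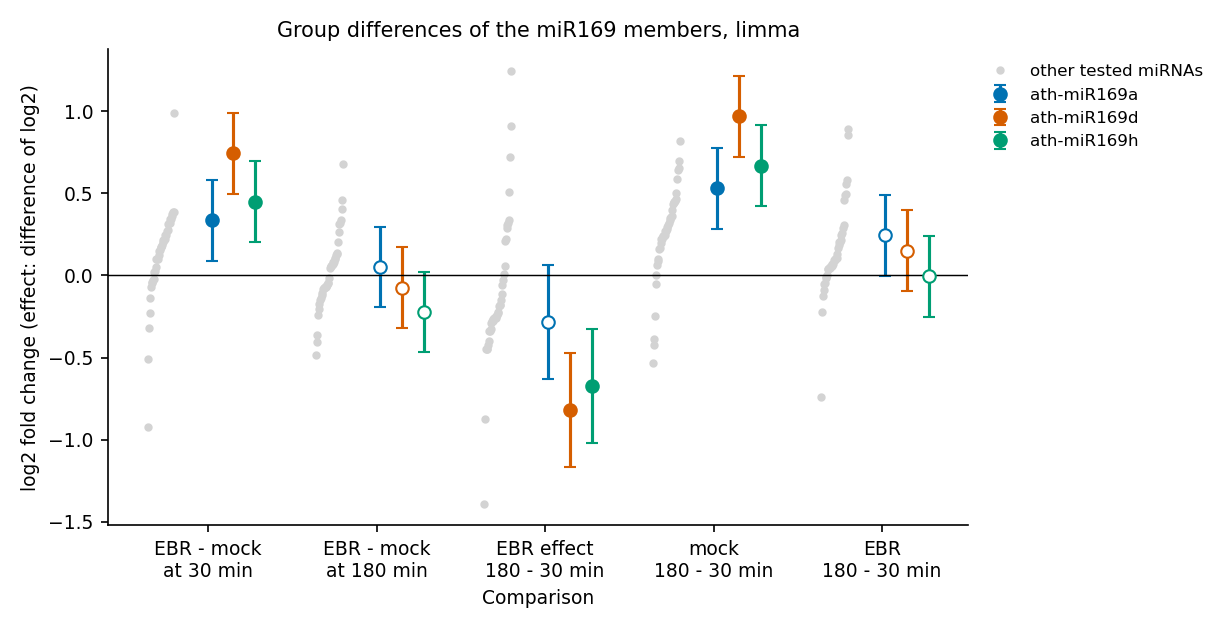
log2 fold change from limma (y axis) in the 5 comparisons (x axis). Coloured points are the miR169 members with 95% intervals, filled where the adjusted p was under 0.05 and open otherwise, and grey points are the other tested miRNAs in order of size. miR169d has the highest value of all in mock at 180 against 30 min (0.97), and no member is filled in EBR against mock at 180 min or in EBR at 180 against 30 min.

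The same difference can be read as a change with time in each arm. In mock-treated seedlings all 3 members were higher at 180 than at 30 min, as were many other miRNAs. Of those tested 65.1% passed the threshold, 25 higher and 3 lower (7 and 8 after array centring), with a median log2 fold change of 0.29. For 76.7% both arrays at 180 min lay above both at 30 min, as they did for each member. miR169d had the largest increase of the 43 miRNAs, at 1.96-fold or 0.97 on the log2 scale (95% interval 0.72 to 1.21, limma's adjusted p = 2.91e-11). With the miRNA's own spread in place of the common one, the adjusted p of miR169d was 0.0174 and the call was kept. miR169h followed at rank 4 with 0.67 (adjusted p = 2.93e-06) and miR169a at rank 8 with 0.53 (adjusted p = 0.000168). This comparison and that of EBR30 with mock use the same 2 mock arrays at 30 min, so their values are not independent of each other.

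After array centring the increase in mock was 0.66 for miR169d (adjusted p = 0.000391 from limma), 0.36 for miR169h (adjusted p = 0.00200) and 0.23 for miR169a, which was no longer past the threshold (adjusted p = 0.0511, between 2.27e-05 and 0.144 over its alternatives). Without mock replicate 1 at 30 min, its lowest array, the increase of miR169a was 0.34 (adjusted p = 0.0329). With EBR no member passed the threshold between 30 and 180 min, where 18.6% of the tested miRNAs did (7 higher and 1 lower, and 7 and 5 after array centring). The log2 fold changes were 0.24 for miR169a (95% interval -0.0014 to 0.49, adjusted p = 0.172 from limma), 0.15 for miR169d (-0.10 to 0.40, adjusted p = 0.494) and -0.01 for miR169h (-0.25 to 0.24, adjusted p = 0.991).

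Differences between members were taken within each array, where an array-wide shift cancels. In mock at 30 min miR169a exceeded miR169d by 0.33 and 0.35 on the log2 scale, while in EBR30 it was lower than miR169d by 0.11 and 0.02. miR169d was lower than miR169h by 0.48 and 0.22 in mock at 30 min and by 0.06 and 0.05 in EBR30. Each of these changes separated the 2 groups without overlap, which gives the smallest exact permutation p that 2 arrays against 2 allow (0.333), so none could pass 0.05. In these means the EBR effect at 30 min was 0.41 larger for miR169d than for miR169a and 0.29 larger than for miR169h.

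Between miR169a and miR169h the arrays of the groups at 30 min overlapped, from -0.15 to 0.13 in mock and from -0.18 to -0.07 in EBR30. At 180 min miR169a was lower than miR169h by 0.20 and 0.10 in mock and higher by 0.11 and 0.14 in EBR180. Of the 12 comparisons over the 3 pairs, 6 set 2 arrays against 2 and could not pass. The other 6 set EBR against mock or 180 against 30 min with 4 arrays each and did not pass, which does not show that the members responded alike. Their lowest p was that of miR169d minus miR169h, which was 0.23 higher at 180 than at 30 min over both treatments (p = 0.0857 in a two-sided exact permutation test, which takes no account of treatment, and 0.5 after Benjamini-Hochberg adjustment over the 12). Within each treatment both arrays at 180 min lay above both at 30 min, at -0.08 and -0.02 with mock and 0.11 and 0.09 with EBR.

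**Figure D4:**
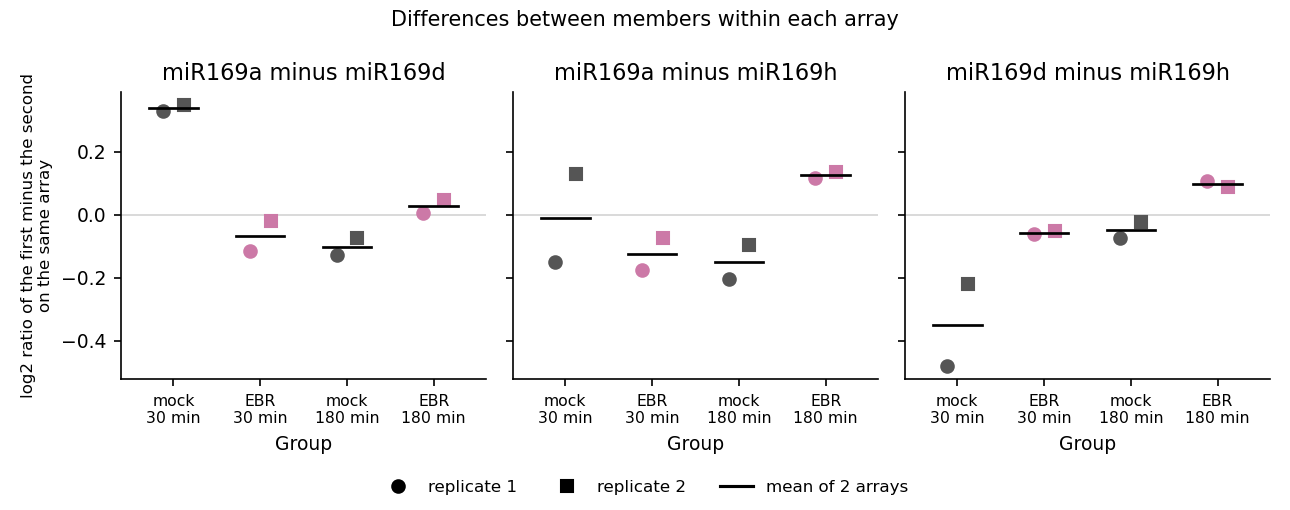
Difference of log2 ratios between 2 members on the same array (y axis) by group. Grey points are mock arrays, pink points EBR arrays and black lines means of 2 arrays. The mock arrays at 30 min stand apart from the other groups for miR169a minus miR169d (0.33 and 0.35) and for miR169d minus miR169h (-0.48 and -0.22).

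The miRNAs with the most similar course were found by the root mean square difference of log2 ratios over the 8 arrays, as a description. Closest to miR169h and to miR169a was ath-miR824, which targets the MADS-box gene AGL16, at 0.0852 and 0.101. The median distance of all other tested miRNAs was 0.191 from miR169h and 0.195 from miR169a. Next to miR169a came ath-miR156a (0.111), which targets SPL genes, and ath-miR166a (0.119), which targets class III HD-ZIP genes. Next to miR169h came ath-miR163 (0.0985) and ath-miR158a (0.117). The closest to miR169d were its relatives miR169a (0.182) and miR169h (0.197), then ath-miR170 (0.213), against a median of 0.333. For miR169a and miR169h the relatives were not among the closest 3. These members were 0.140 apart, with miR169h at rank 7 from miR169a and miR169a at rank 11 from miR169h. miR169d had rank 19 from miR169a and rank 23 from miR169h, and its distance of 0.197 from miR169h exceeded the median of 0.191.

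Other miRNAs linked to nutrient supply were described as a list: the families of sulfate (miR395), phosphate (miR399, miR778, miR827), copper (miR397, miR398, miR408, miR857) and nitrogen supply (miR393, miR826). Of their 17 rows, 7 were above 0.01 on all arrays and were tested. These belonged to miR395, miR397, miR398, miR399 and miR827. No row of the nitrogen families miR393 and miR826, nor of miR408, miR778 or miR857, was tested, so the list does not cover nitrogen supply. Between EBR30 and mock 0 of the 7 rose in limma (0 also without adjustment) and 2 fell past the threshold, with a median log2 fold change of -0.05 beside 0.18 over all 43 miRNAs, of which 13 rose and 3 fell. The list again had 0 higher and 2 lower after array centring, beside 4 and 4 of the 43. The lowest was ath-miR397a, a regulator of laccase mRNAs, with -0.92 (adjusted p = 1.12e-10 from limma), and the highest ath-miR395b with 0.22 (adjusted p = 0.150). From 30 to 180 min in mock 0 rose (0 without adjustment) and 3 fell, with a median of -0.25 beside 0.29, while 25 of the 43 rose and 3 fell. After centring 0 were higher (0 without adjustment) and 5 lower, beside 7 and 8 of the 43. In the 2 comparisons in which all 3 miR169 members passed upward, the highest of the 7 rows were ath-miR395b and, in mock, ath-miR398a with 0.17 (adjusted p = 0.207 from limma), neither past the threshold. The lowest in mock was ath-miR395a with -0.53 (adjusted p = 0.000168 from limma). Between EBR180 and mock 3 of the 7 rose and 0 fell (0 without adjustment), beside 4 and 3 of the 43, and 3 and 0 beside 7 and 6 after centring. The values ran from -0.08 for ath-miR827 (adjusted p = 0.735) to 0.68 for ath-miR395a (adjusted p = 8.47e-06), which regulates ATP sulfurylase and sulfate transporter mRNAs.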

How the data were processed

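The deposited values are ratios made by the authors from single-colour arrays (Agilent Feature Extraction 9.1 per the labels, then GeneSpring, with the median across samples as baseline). The authors' background correction, scaling between arrays and setting of the lowest value of 0.01 are not given in the sources used here, nor is any signal over background. Each of the 43 tested miRNAs had a median of 1 over the 8 arrays. The 114 miRNAs listed at 0.01 throughout and the 4 listed at 0.01 on part of the arrays were left out.

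log2 ratios were fitted with limma 3.58.1 in R 4.3.3, with a mean for each group, empirical Bayes moderation (which gave all miRNAs 1 common spread) and Benjamini-Hochberg adjustment over the 43 miRNAs, with a threshold of 0.05. The fit was tested on simulated data with the same spread for every miRNA and no array-wide shift. That test cannot show how the p-values hold where spreads differ or arrays shift, as they do here. Exact permutation tests used scipy 1.17.1. Alternatives were array centring, quantile normalization, a replicate block, a trended robust prior, each miRNA's own spread, the compared groups only, log2 of the ratio plus 1, inclusion of the 4 miRNAs partly at 0.01, adjustment over all 161 miRNAs, and each array left out. With own spread the F-test is a one-way analysis over 4 groups, the kind of test that the methods name. The methods name no adjustment of p, whereas adjusted p-values are given here. Named miRNAs are the members, the 3 most similar to each, and the highest and lowest of each list in the EBR comparisons. The members, lists and tests were chosen with earlier results of these data known. RefSeq served for gene names and order only, and all 3 members matched a gene. The number of arrays limits the precision.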

Additional observations from a re-analysis of the deposited data

Results flagged for a closer look

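The EBR effect differed between the times for 2 members in limma. For miR169d the effect at 180 min minus that at 30 min was -0.82 on the log2 scale (adjusted p = 5.84e-05, and 0.0805 with the miRNA's own spread). Its log2 fold change was 0.74 at 30 min and -0.08 at 180 min, the latter within the spread. For miR169h the difference was -0.67 (adjusted p = 0.00117), with 0.45 at 30 min and -0.22 at 180 min. At 30 min both EBR30 arrays lay above both mock arrays for each of these members, an order that 65.1% of the tested miRNAs also showed. For both members the mock arrays at 30 min were the lowest, as was the array median on them, and for miR169h the mock arrays at 180 min were also the highest. The share of the tested miRNAs with these orders over all groups was not counted. After array centring the differences were -0.64 and -0.50, and the part of miR169h at 180 min was -0.21 (adjusted p = 0.0277).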

How the results depend on the processing

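Over the 5 comparisons the members' effects kept their direction and side of the threshold in 120 cases under other settings, while 10 lost and 2 gained a call. With 1 array left out, 114 kept them, 3 lost and 1 gained a call and 2 changed sign (the array left alone was taken to vary as the other groups do). Where the array left out was in neither compared group, the fold change could not move either. At EBR30 miR169a lost its call after centring (log2 fold change 0.17) and quantile normalization (0.12). Its call was also lost where the fold change stayed at 0.34 and only the spread or the adjustment differed. The adjusted p of the linear fit was then 0.0647 with the trended robust prior and 0.165 with its own spread. It was 0.110 with the miRNAs partly at 0.01 and 0.102 with adjustment over 161 miRNAs. With 1 array left out, its log2 fold change lay between 0.15 and 0.53. For miR169d it was 0.74 with its own spread (adjusted p = 0.0772), as was the difference between times of -0.82 (adjusted p = 0.0805). miR169h at EBR180 passed after centring (-0.21) and quantile normalization (-0.24). In mock the change of miR169a with time lost its call after centring (0.23) and quantile normalization (0.21). Its difference of the EBR effect lay between -0.48 and -0.094 with 1 array left out. The change of miR169h with time under EBR lay between -0.050 and 0.040 with 1 array left out and was above 0 without EBR30 replicate 2 (0.0070) or EBR180 replicate 2. The EBR effect at 30 min of miR169a minus miR169h lay between -0.25 and 0.026, above 0 only without mock replicate 2. The F-test's adjusted p for miR169a was 0.0587 after centring, 0.131 after quantile normalization, 0.0937 with its own spread and 0.0522 with the miRNAs partly at 0.01.

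Some counts over the 43 miRNAs moved over 1.5 times. At EBR30 the 16 became 8 after centring, 6 after quantile normalization, 2 with own spread, 4 with the miRNAs partly at 0.01, and 5 over 161 miRNAs. At EBR180 the 7 became 13, 11, 0 (9 unadjusted) and 1 under the first 4 of these, and 4 with the trended robust prior. The 11 for the difference became 4 with own spread, 6 with miRNAs partly at 0.01, 7 over 161 miRNAs and 7 without EBR30 replicate 1. The 28 in mock became 15 after centring and 10 after quantile normalization, and the 8 with EBR became 2 with own spread, 2 with the miRNAs partly at 0.01 and 4 without EBR180 replicate 1. The cause was not tested.

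The replicate numbers are shared between groups, but the labels do not tie them to an experiment. Deviations of number 1 arrays from their group means correlated by 0.11 to 0.36 across the 43 miRNAs. The fit with a replicate block changed no member's call (0.74 and adjusted p = 2.32e-07 for miR169d at EBR30) and no count. Signal over background was not given, so its limit is unknown.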

Other observations

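miRNAs linked to water deficit and abscisic acid (families miR159, miR160, miR167, miR168, miR319, miR393, miR396 and miR402) were also described as a list, since miR169 falls under drought. Of 14 rows 5 were tested, which belonged to miR159, miR160, miR167 and miR168. No row of miR319, miR393, miR396 or miR402 was tested. Between EBR30 and mock 1 rose and 0 fell past the threshold in limma (1 and 0 without adjustment), with a median log2 fold change of 0.15, beside 13 and 3 of all 43 tested miRNAs. The counts were again 1 and 0 after array centring, beside 4 and 4 of the 43. The highest was ath-miR160a, a regulator of auxin response factors, with 0.32 (adjusted p = 0.0309 from limma), and the lowest ath-miR159a, which targets GAMYB-like mRNAs, with 0.10 (adjusted p = 0.530). Between EBR180 and mock 0 passed in either direction, with or without adjustment, from -0.08 for ath-miR168a, the regulator of AGO1, to 0.11 for ath-miR159b (adjusted p = 0.735 for each). From 30 to 180 min in mock 3 of the 5 rose and 0 fell (4 and 0 without adjustment), with a median of 0.27 beside 0.29 over all 43, of which 25 rose and 3 fell. After array centring 0 of the 5 passed in limma (0 also without adjustment), beside 7 higher and 8 lower of the 43.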
